A study of Mus musculus with 10 samples.

Results

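Complement is a set of plasma and cell-bound proteins that tag microbes, immune complexes and dying cells for uptake. Described here are 8 of its genes in mouse bone marrow cells, of 55367 genes counted: the C1q chains C1qa, C1qb and C1qc, the central component C3, the alternative pathway genes Cfb and Cfp, and the anaphylatoxin receptors C3ar1 and C5ar1. They were taken by gene symbol, and all 8 passed the filter on low counts that left 15126 genes for testing. RNA came from bone marrow cells labelled BMMC of mice that drank regular water (water, 5 libraries) or water with 1% α-ketoglutarate (α-KG, 5 libraries), a metabolite of the tricarboxylic acid cycle. The series concerns myeloproliferative neoplasms, and no source used here gives the strain, genotype, sex or age of the mice or the length of treatment. Libraries are called water 1 to 5 and α-KG 1 to 5, and equal numbers do not pair them. Whether every library is its own animal is not in the labels, and p-values thus reflect the variation among these libraries, which may be technical.

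Complement starts in several ways. C1q, built from A, B and C chains, binds antibody or cell debris and starts the classical pathway, and lectins such as ficolins start the lectin pathway. Both lead to cleavage of C3, the step that factor B and properdin amplify in the alternative pathway, and the small fragments C3a and C5a then act on receptors of myeloid cells. Most plasma complement is made by hepatocytes, whereas C1q is made mainly by macrophages and other myeloid cells, and properdin is stored in neutrophils and made by monocytes.

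Among the 8 genes, Cfb passed the test and had the highest fold change, 2.51-fold, while the C1q chains had fold changes of 1.88 to 1.98 and Cfp of 1.58 without passing. C3 and C5ar1, the most abundant of the 8 per length, both had a fold change of 1.04. Of the 8, 1 rose and 0 fell at an adjusted p under 0.05 (edgeR quasi-likelihood test), where 2.73% of all genes tested were called and 2.39% were called higher. At an unadjusted p under 0.05, 5 of 8 were higher in α-KG (Cfb, the C1q chains and Cfp), against 16.3% of all genes tested. All 8 log2 fold changes were above 0, against 51.7% of all genes, and their median was 0.80 against 0.02. These shares are no test of the set. The C1q chains varied together over the libraries, and the 8 genes were chosen with earlier results of these data known. The groups did not overlap for 1 of the 8, Cfb, against 3.64% of all genes that were higher in α-KG without overlap. The plot of levels by library shows these values in CPM, read counts scaled to library sizes adjusted by TMM, the unit of all levels below unless a length is named.

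**Figure D1:**
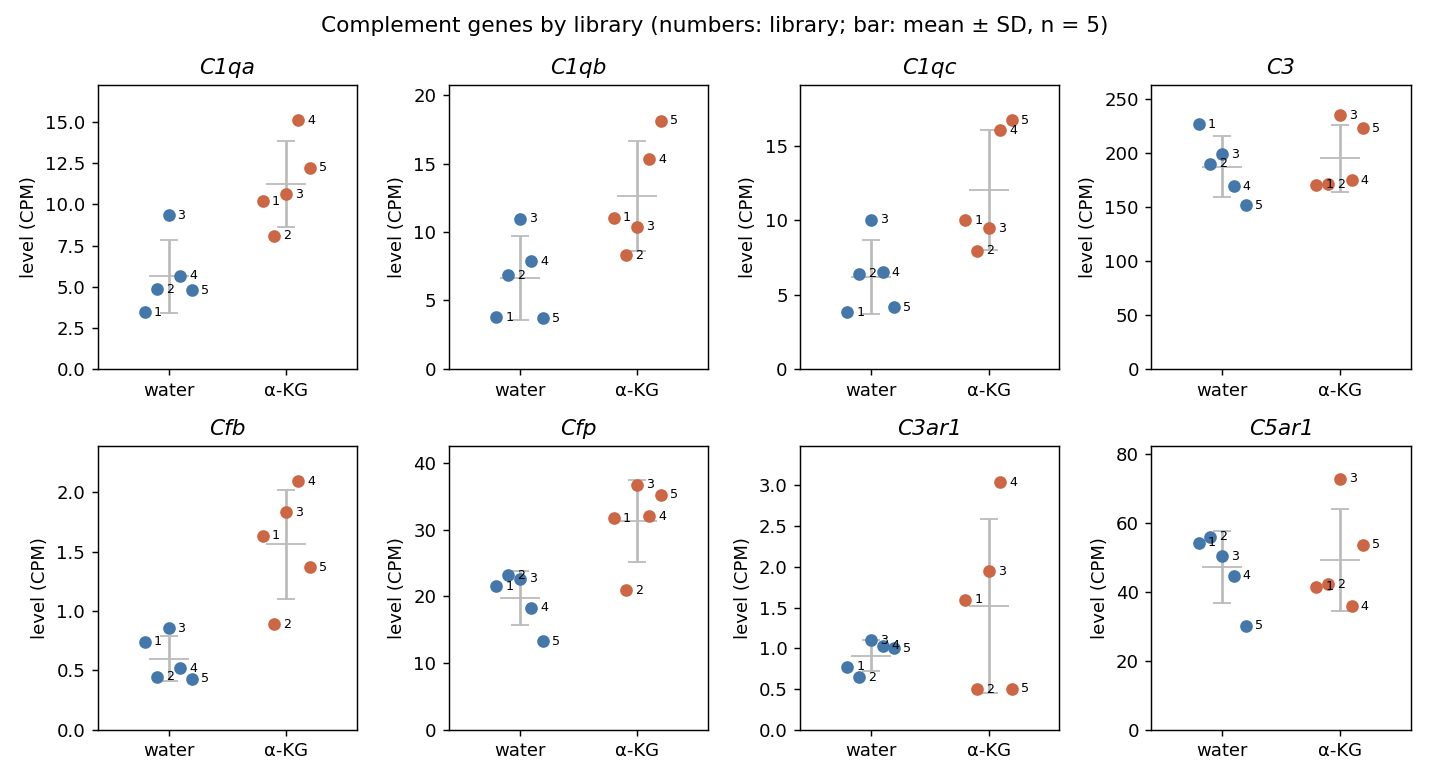
Level of each of the 8 complement genes (y axis, CPM, starting at 0) in the 5 water (blue) and 5 α-KG (orange) libraries, numbered as in the text. Grey bars give the mean ± SD (n = 5). All 5 α-KG libraries lie above all water libraries for Cfb, while the groups overlap for the other 7.

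The genes of the C1q chains lie next to each other on the minus strand of chromosome 4 (build GRCm38, positions from GENCODE M21), in a stretch of 18675 bases. C1qb, the B chain gene, spans chr4:136880129-136886187, C1qc chr4:136889804-136893065 and C1qa chr4:136895917-136898803. Each has 3 exons, and no other annotated gene overlaps them. The gaps between them are 3616 bases from C1qb to C1qc and 2851 bases from C1qc to C1qa. The start region of C1qb and C1qc is shown because these neighbours followed each other most closely over the libraries. It runs from 250 bases before to 50 bases after the start (RefSeq, GRCm38.p6, minus strand, chr4:136886151-136886450 and chr4:136892865-136893164). Capitals mark matches on either strand to a core of PU.1 and other ETS factors (GAGGAAG), to a core of Maf factors (TGCTGAC) or to a C/EBP motif (TTGCNNAA).
C1qb: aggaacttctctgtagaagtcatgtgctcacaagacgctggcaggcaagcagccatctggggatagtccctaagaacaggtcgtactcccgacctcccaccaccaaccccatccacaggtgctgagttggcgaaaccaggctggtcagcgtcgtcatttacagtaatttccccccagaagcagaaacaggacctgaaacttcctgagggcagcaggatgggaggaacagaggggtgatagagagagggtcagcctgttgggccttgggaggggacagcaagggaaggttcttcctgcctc
C1qc: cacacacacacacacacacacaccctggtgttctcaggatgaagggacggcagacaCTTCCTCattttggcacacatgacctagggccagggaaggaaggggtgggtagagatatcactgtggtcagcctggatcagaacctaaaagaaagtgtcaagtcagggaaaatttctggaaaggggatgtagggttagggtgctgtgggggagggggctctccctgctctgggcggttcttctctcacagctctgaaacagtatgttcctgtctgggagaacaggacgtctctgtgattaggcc
The ETS core was found once in the C1qc window, on the opposite strand and 194 bases before the RefSeq start, and in 13.6% of 32851 windows of the same length. That start lies inside the GENCODE span of C1qc given above, so the match is nearer to the GENCODE start. Neither other motif was found in the C1qb or C1qc window, and the Maf core and the C/EBP motif occurred in 4.67% and 10.8% of all windows. A match is a description of letters and not a binding site. The motifs were chosen with the sequences in view.

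C1qa, the A chain gene, stood at 3.46, 4.87, 9.34, 5.67 and 4.79 CPM in water 1 to 5 and at 10.2, 8.10, 10.6, 15.1 and 12.2 CPM in α-KG 1 to 5. Water 3 was the highest water library and lay above α-KG 2, which was the only crossing between the groups. The means were 5.63 ± 2.22 and 11.25 ± 2.61 CPM (± SD, n = 5), and the log2 fold change was 0.99 (SE 0.25; adjusted p = 0.0555), from 67 to 263 counts per library. C1qb stood at 3.77, 6.85, 10.98, 7.88 and 3.72 CPM in water and at 11.04, 8.30, 10.4, 15.3 and 18.1 CPM in α-KG. Its means were 6.64 ± 3.05 and 12.6 ± 3.99 CPM (± SD, n = 5), and the log2 fold change was 0.91 (SE 0.31; adjusted p = 0.101). Again water 3 reached into the α-KG range, and 3 of 5 α-KG libraries lay above it. C1qc, the C chain gene, stood at 3.80, 6.40, 10.02, 6.52 and 4.15 CPM in water and at 9.99, 7.95, 9.45, 16.1 and 16.7 CPM in α-KG. Its means were 6.18 ± 2.48 and 12.03 ± 4.05 CPM (± SD, n = 5), and the log2 fold change was 0.94 (SE 0.29; adjusted p = 0.0806). For all 3 chains every α-KG library lay above the water mean.

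Leaving out 1 library decided whether the C1q chains were called. Without water 3 all 3 chains passed (log2 fold changes 1.26, 1.18 and 1.20 for C1qa, C1qb and C1qc; adjusted p = 0.0167, 0.0471 and 0.0354), beside Cfb, which made 4 of 8, while 3.52% of all genes were called higher. Without α-KG 2, the lowest α-KG library of each chain, they passed as well, and 5 of 8 with Cfb and Cfp, while 10.5% of all genes were called higher. When any other library was left out 0 of the 8 passed, with 5 or 6 at an unadjusted p under 0.05. No gene of the whole table passed without water 1, 2 or 4 or without α-KG 4. With DESeq2 4 of 8 were called (C1qa, C1qc, Cfb and Cfp), against 6.07% of genes called higher, and with limma voom and quality weights 5 of 8 (with C1qb), against 9.26%.

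The chains kept nearly the same proportions in both groups. Per kilobase of merged exons, C1qa made up 37.4% ± 4.91 of the summed level of the chains in water libraries and 38.3% ± 3.78 in α-KG libraries (n = 5 each, SD). C1qb made up 40.8% ± 4.55 and 40.25% ± 2.76, and C1qc 21.8% ± 0.961 and 21.5% ± 1.43. The log2 ratio of C1qb to C1qc was 0.06 ± 0.14 in water and 0.07 ± 0.08 with α-KG (n = 5, SD), a difference of 0.01 (exact two-sided permutation test, p = 0.913, adjusted p = 0.944 over 28 pairs). C1qa against C1qb and against C1qc differed by 0.04 and 0.05 between the groups (exact permutation test, adjusted p = 0.906 and 0.824). These p-values do not show that the ratios were equal.

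**Figure D2:**
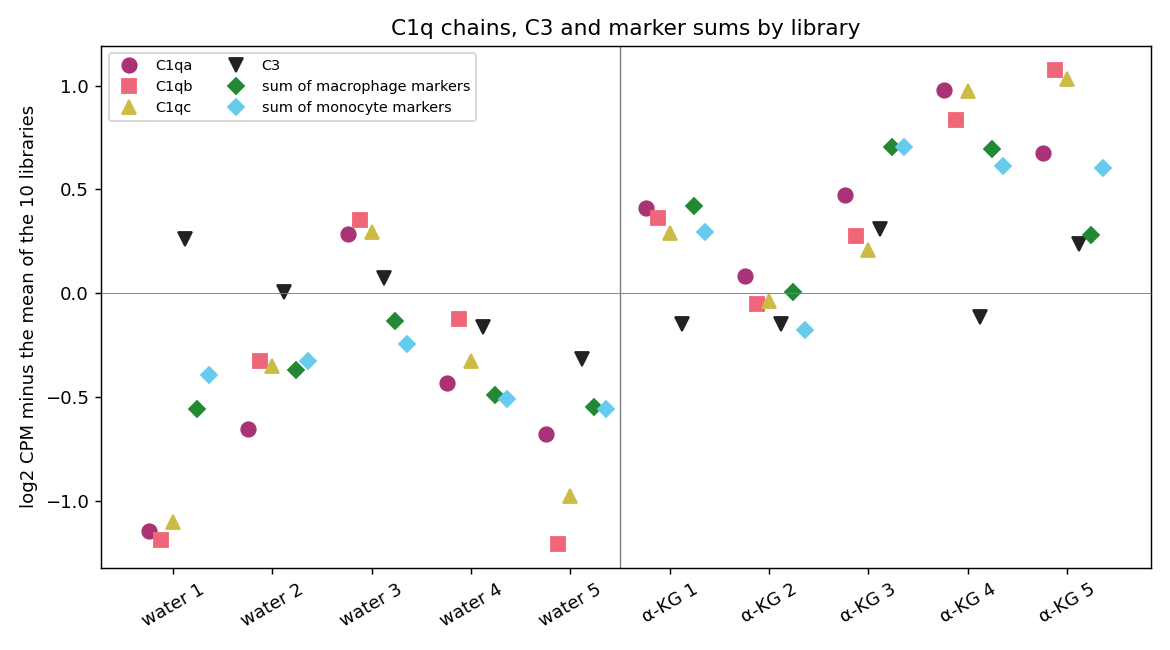
Level of C1qa, C1qb, C1qc and C3, and summed level of the macrophage and monocyte marker genes, in each library on a log2 scale (y axis, log2 CPM minus the mean of the 10 libraries; x axis, libraries). The C1q chains are low in water 1 and water 5, high in water 3 among the water libraries and high in α-KG 4 and α-KG 5, while C3 varies less between libraries.

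C3, the protein on which all pathways converge, is encoded on the minus strand of chromosome 17 (chr17:57203970-57228136, 42 merged exons). Its level was 227, 190.5, 199.5, 170 and 152 CPM in water and 171, 171, 235, 175 and 223 CPM in α-KG. The means of 188 ± 28.7 and 195 ± 31.5 CPM differed by less than the SD (n = 5), at a log2 fold change of 0.06 (SE 0.17; adjusted p = 0.846), and 2 of 5 α-KG libraries lay above the water mean. With 1843 to 7353 counts per library, C3 was the deepest counted of the 8 genes. Its start region (chr17:57228087-57228386) and that of Cfp (chrX:20931506-20931805) are shown because the levels of these genes form 1 of the 3 pairs with the smallest p in the test of ratios described below. The build, window and motifs are as above.
C3: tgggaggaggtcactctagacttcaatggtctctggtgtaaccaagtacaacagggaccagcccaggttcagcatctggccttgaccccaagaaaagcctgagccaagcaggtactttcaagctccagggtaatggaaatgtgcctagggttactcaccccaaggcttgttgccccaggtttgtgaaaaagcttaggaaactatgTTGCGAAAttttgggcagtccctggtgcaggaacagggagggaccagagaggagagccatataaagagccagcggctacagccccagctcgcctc
Cfp: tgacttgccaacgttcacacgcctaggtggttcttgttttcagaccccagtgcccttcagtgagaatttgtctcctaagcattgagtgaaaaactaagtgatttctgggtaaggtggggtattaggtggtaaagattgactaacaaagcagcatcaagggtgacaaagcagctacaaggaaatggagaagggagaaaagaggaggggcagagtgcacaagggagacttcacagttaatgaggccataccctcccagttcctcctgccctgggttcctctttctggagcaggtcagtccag
The C3 window held 1 match to the C/EBP motif, 45 bases before the start, and the Cfp window held none of the motifs.

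Cfb encodes factor B, the protease that joins C3b in the alternative pathway convertase (chr17:34856374-34862518, minus strand, 17 merged exons). It stood at 0.742, 0.447, 0.853, 0.516 and 0.429 CPM in water and at 1.63, 0.889, 1.83, 2.09 and 1.37 CPM in α-KG. Every α-KG library was above every water library, although α-KG 2 exceeded water 3 by little. Cfb rose from 0.597 ± 0.190 to 1.56 ± 0.460 CPM (± SD, n = 5), and the log2 fold change was 1.33 (SE 0.30; adjusted p = 0.0416). This rests on 5.91 to 24 counts per water library and 18 to 42.1 per α-KG library. The call was lost when water 1, 2, 4 or 5 or α-KG 1, 3, 4 or 5 was left out, with a log2 fold change between 1.21 and 1.42 and an adjusted p between 0.0590 and 0.130. It was also lost with the protein-coding share of the counts as a covariate (1.47, adjusted p = 0.161), a fit that called 0 of 15126 genes and left 3 of the 8 at an unadjusted p under 0.05. The read-through gene Gm20547 on the same strand shares 79.5% of the exon bases of Cfb. It was counted at 5.09 in water 5 and 3.87 in α-KG 1, and at 0 after rounding in the other libraries. Water 5 was also the lowest library for Cfb, at 5.91 counts. The Cfb count, and with it the fold change, thus depends on how reads were divided between the genes. No source used here gives the rule.

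Cfp encodes properdin, which stabilises that convertase (chrX:20925454-20931555, minus strand, 9 merged exons). Its level was 21.5, 23.1, 22.6, 18.3 and 13.3 CPM in water and 31.7, 20.9, 36.7, 32.0 and 35.3 CPM in α-KG. In 4 of 5 α-KG libraries it exceeded the highest water library, and α-KG 2 lay among the water libraries. The means were 19.8 ± 4.08 and 31.3 ± 6.19 CPM (± SD, n = 5), and the log2 fold change was 0.66 (SE 0.18; adjusted p = 0.0628). Without α-KG 2 it passed (0.78, adjusted p = 0.0116), and with each other library left out it did not.

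C3ar1, the receptor of C3a, lies on chromosome 6 (chr6:122847138-122856161, minus strand). It was at 0.773, 0.645, 1.101, 1.03 and 1.001 CPM in water and at 1.59, 0.494, 1.95, 3.04 and 0.504 CPM in α-KG. The α-KG libraries fell on both sides of the water range, with α-KG 2 and 5 below it and the other 3 above. Means were 0.910 ± 0.193 and 1.52 ± 1.07 CPM (± SD, n = 5), and the log2 fold change was 0.70 (SE 0.45; adjusted p = 0.313), on 7 to 41 counts per library, and without α-KG 4 the log2 fold change was 0.34 (adjusted p = 0.625). C5ar1, the receptor of C5a (chr7:16246743-16259540, minus strand), was at 54.3, 55.9, 50.3, 44.7 and 30.1 CPM in water and at 41.5, 42.3, 72.7, 35.7 and 53.7 CPM in α-KG. The ranges overlapped, with α-KG 3 above every water library and water 5 below every α-KG library. The means were 47.1 ± 10.4 and 49.2 ± 14.7 CPM (± SD, n = 5), and the log2 fold change was 0.06 (SE 0.21; adjusted p = 0.863).

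Per kilobase of merged exons, C3 had the highest level of the 8 in both groups, at 36.5 ± 5.59 CPM per kilobase in water and 38.0 ± 6.12 with α-KG (n = 5, SD), and its range lay above that of the next gene, C5ar1. C5ar1 followed at 18.3 ± 4.05 and 19.1 ± 5.72, and Cfp at 11.4 ± 2.35 and 18.05 ± 3.57. C5ar1 was above Cfp in 5 of 5 water libraries and in 3 of 5 α-KG libraries, with overlapping ranges. C1qb, C1qa and C1qc came next, at 6.10 ± 2.80, 5.41 ± 2.14 and 3.20 ± 1.29 in water and at 11.6 ± 3.67, 10.8 ± 2.51 and 6.23 ± 2.10 in α-KG. From Cfp to C1qc each range overlapped the next, although C1qa was above C1qc in 5 of 5 libraries of each group. The range of C1qc lay above that of the next gene in both groups. Cfb and C3ar1 were lowest, at 0.211 ± 0.0671 and 0.212 ± 0.0448 in water and at 0.553 ± 0.163 and 0.352 ± 0.249 in α-KG. Merged exon lengths were used and the transcripts present were not measured, so the order is approximate.

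Whether the genes differed from each other in their response was tested on the log2(CPM + 1) ratio of all 28 pairs, and 0 passed after adjustment (exact two-sided permutation test, smallest adjusted p = 0.0741), with 8 at an unadjusted p under 0.05. C3 against Cfp went from a log2 ratio of 3.20 ± 0.18 in water to 2.61 ± 0.23 in α-KG, and C3 against Cfb from 6.88 ± 0.15 to 6.27 ± 0.32 (SD, n = 5; exact permutation p = 0.00794 for both, the smallest possible). Cfp against C5ar1 went from -1.20 ± 0.08 to -0.61 ± 0.36 (exact permutation p = 0.00794). No smaller p is possible with 5 and 5 libraries, and over 28 pairs this p passes only if more pairs share it. That 0 passed thus does not show that the genes changed alike. The difference for C1qa against C3 was 0.86 (exact permutation p = 0.0159, adjusted p = 0.111). C3 against C5ar1 differed by 0.01 (exact permutation p = 0.944). The pseudocount of 1 compresses changes of Cfb and C3ar1.

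Likeness of pattern was measured as the root mean square difference of centred log2(CPM + 1) over the 10 libraries. C1qb and C1qc were the closest of the 28 pairs at 0.102, with a range over pairs up to 0.659 for C1qb and C5ar1. Other close pairs were C1qa and C1qc at 0.181, C3 and C5ar1 at 0.184, Cfb and Cfp at 0.208, and C1qa and C1qb at 0.236. Among 11313 other named genes, the nearest to each C1q chain was Gngt2, a G protein γ subunit gene, at 0.0949 from C1qa, 0.202 from C1qb and 0.128 from C1qc. Fcgr1, the high-affinity IgG receptor gene and one of the macrophage markers used below, was next for C1qb at 0.208 and C1qc at 0.165. The pore-forming protein gene Mpeg1 was at 0.176 from C1qa, after the pseudogene Nxpe1-ps at 0.167. Next came, for C1qb and C1qc, Prr5l at 0.223 and Tmem176b at 0.181. The genes nearest to C3 were Cpne2, Cyb5r4 and Acad11, at 0.0636 to 0.0863, and those nearest to C5ar1 were the neutrophil serpin gene Serpinb1a, the glycogen phosphorylase gene Pygl and Slc27a4, at 0.0727 to 0.0884. Cfb was nearest to Mef2a, the interferon-γ receptor gene Ifngr1 and Deptor (0.0674 to 0.0758), and Cfp to Adam15, Anxa2 and Tm6sf1 (0.0730 to 0.0961). Mef2a, Ifngr1 and Deptor had log2 fold changes of 0.66, 0.68 and 0.91, below the 1.33 of Cfb. For C3ar1 the nearest were Angpt1, Rgs1 and Zfp619, at 0.177 to 0.181. Low genes have small differences on this scale, so distances are not comparable between genes of different level. The pseudocount compresses the change of low genes, so near genes can differ in log2 fold change. Cfb and Cfp had 1.33 and 0.66, and Fcgr1 and C1qb 1.48 and 0.91.

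Of the 46 other complement genes reported here, 21 passed the filter on low counts, of which 2 (Fcna and Lrp1) rose and 0 fell, where 2.39% of all genes tested were called higher. Over the 21 the median log2 fold change was 0.20, with 13 above 0, against 51.7% of all genes. Both calls were lost when water 1, 2 or 4 or α-KG 4 was left out. Fcna, the ficolin A gene of the lectin pathway, was at 2.07, 2.78, 3.66, 3.42 and 3.22 CPM in water and at 6.14, 7.65, 7.20, 9.98 and 5.76 CPM in α-KG. It rose without overlap from 3.03 ± 0.626 to 7.35 ± 1.66 CPM (± SD, n = 5), and the log2 fold change was 1.27 (SE 0.20; adjusted p = 0.0154). Fcnb, ficolin B of myeloid precursors, had a log2 fold change of -0.09 (SE 0.18; adjusted p = 0.755). The C4 gene C4b, whose reads can be shared with its near-identical copy C4a, had a log2 fold change of 0.84 (SE 0.25; adjusted p = 0.0754), and C4a one of -0.44 (SE 0.33; adjusted p = 0.388). The protease gene C1ra and C1rl, also of this pathway group, had log2 fold changes of 0.54 and 0.48, neither of which passed (adjusted p = 0.270 and 0.218).

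Of the 6 tested regulators reported here 0 passed in edgeR, with 1 higher and 2 lower at an unadjusted p under 0.05, against 16.3% and 11.5% of all genes. Limma voom called Serping1 higher and Cd55 lower (adjusted p = 0.0480 and 0.0354), and edgeR without α-KG 2 called Serping1 higher (adjusted p = 0.0334). Serping1, encoding the C1 inhibitor, had a log2 fold change of 0.66 (SE 0.23; adjusted p = 0.0998). The tested membrane regulators Cr1l, Cd55, Cd46 and Cd59a all had log2 fold changes below 0, of -0.40, -0.30, -0.29 and -0.40 (adjusted p = 0.152 to 0.516), and the highest level among them and the other regulators was that of Cd55, at 33.1 ± 2.95 and 26.9 ± 4.81 CPM (SD, n = 5).

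Among receptors, Lrp1, a scavenger receptor for C1q-coated debris and many other ligands, was at 61.4, 75.4, 85.6, 68.4 and 67.9 CPM in water and at 157.5, 182, 205 and 180.4 CPM in α-KG 1, 3, 4 and 5, with α-KG 2 the lowest α-KG library but above all water libraries. It rose without overlap from 71.7 ± 9.21 to 165 ± 40.1 CPM (± SD, n = 5), and the log2 fold change was 1.20 (SE 0.19; adjusted p = 0.0154). Itgam and Itgb2, which form a complement receptor of myeloid cells, had log2 fold changes of 0.20 and 0.18, which did not pass (adjusted p = 0.531 and 0.526), with means of 201 ± 39.3 and 230.4 ± 53.8 CPM for Itgam (SD, n = 5). Calr, calreticulin, which also binds C1q, had a log2 fold change of -0.18 (adjusted p = 0.401). Cr2, a complement receptor gene of B cells, had a log2 fold change of 2.04 ± 0.58 (SE; adjusted p = 0.0703). Its level was between 0.891 and 1.49 CPM in water, 12.2 CPM in α-KG 1 and between 1.04 and 5.25 elsewhere in α-KG. The summed B cell markers were also highest in α-KG 1, at 448 CPM against 81.2 to 168 CPM for the rest of α-KG and 100 to 174 CPM in water. Other libraries did not keep this order. Water 1 had a sum of 174 CPM with Cr2 at 1.42 CPM, and α-KG 3 a sum of 136 CPM with Cr2 at 5.25 CPM. The part of B cells in the level of Cr2 was not tested.

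**Figure D3:**
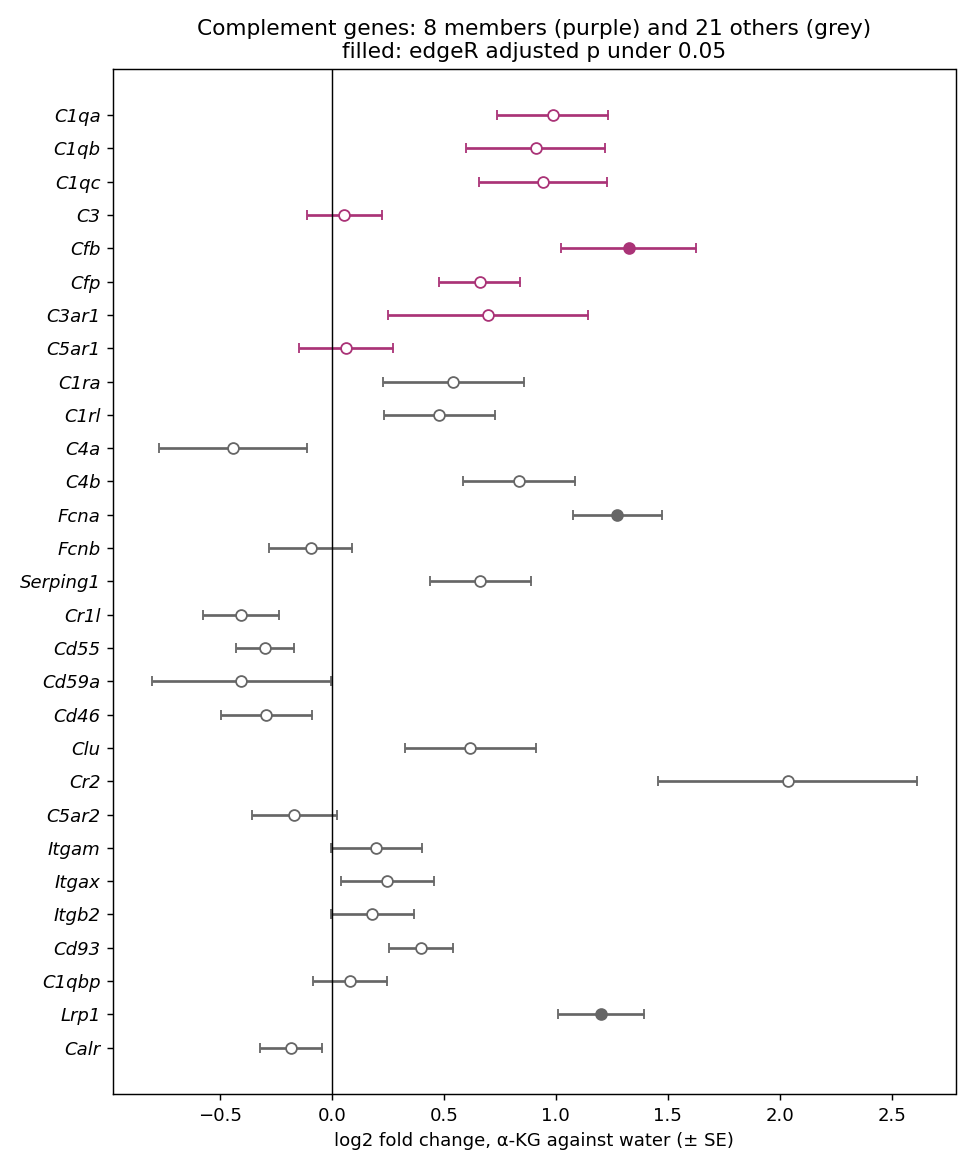
Log2 fold change of α-KG against water (x axis, ± SE) of the 8 complement genes (purple) and the 21 other complement genes tested (grey). Filled points have an adjusted p under 0.05 (edgeR): Cfb at 1.33, Fcna at 1.27 and Lrp1 at 1.20.

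The remaining 25 complement genes did not pass the filter on low counts. One of them, the regulator gene Cd59b, was at 0.658 ± 0.313 CPM in water and 0.227 ± 0.117 CPM in α-KG (n = 5, SD). It was called lower by DESeq2 and by edgeR without α-KG 2, which tested it (log2 fold changes -1.59 and -1.80, adjusted p = 0.0480 and 0.0415), and was not tested in edgeR with all libraries. In the terminal pathway 0 of 7 genes were tested, the highest being C8g and Hc (which encodes C5) at 0.222 and 0.160 CPM on average. Mbl1, Mbl2, Colec10, C9 and Cfi had no count in any library, and the factor D gene Cfd had 0 to 9 counts. Hepatocyte markers summed to 0 to 0.0938 CPM in water and 0 to 0.177 CPM in α-KG, with Alb at 0 in all libraries except water 4 and α-KG 5.

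Markers of macrophages and monocytes moved with the C1q chains, Cfb and Cfp. The 15 macrophage markers, none of them a complement gene of the 8, summed to 127 to 170 CPM in water and 188 to 304 CPM in α-KG, and 9 of the 14 tested rose. The 14 monocyte markers summed to 949 to 1179 CPM in water and 1236 to 2276 CPM in α-KG, and 9 of 14 rose. Of all genes tested, 2.39% were called higher. As with the complement genes, no marker was called when water 1, 2 or 4 or α-KG 4 was left out. Csf1r, which rose, is in both lists. The tested markers that were not higher were Slc40a1 in the macrophage list, at a log2 fold change of -0.09 (adjusted p = 0.653), and Cd14 in the monocyte list, at -0.06 (adjusted p = 0.868). Of the defining macrophage markers, Adgre1 (F4/80) rose by 1.03 on the log2 scale (adjusted p = 0.0368), Mertk, Spic and Vcam1 were at 0.94, 1.37 and 0.51 (adjusted p = 0.0626, 0.0932 and 0.122), and Timd4 had 0 to 3 counts. Of the defining monocyte markers, Ccr2 rose by 1.33 (adjusted p = 0.0184) and Ly6c2 was at 0.51 (adjusted p = 0.0885). Water 3, highest of the water libraries for the C1q chains and Cfb, was also highest of them for both sums, and α-KG 2, lowest of the α-KG libraries for the C1q chains, Cfb and Cfp, was lowest for both. With the macrophage marker mean as a covariate, C1qa, C1qb, C1qc, Cfb and Cfp had log2 fold changes of -0.10, 0.02, 0.04, 0.24 and 0.13, and with the monocyte mean at -0.062, -0.28, -0.26, 0.22 and -0.095. Of the 8 genes, 1 and 0 had an unadjusted p under 0.05 in these fits. Neither fit called any of 15126 genes. The covariate was the mean log2(CPM + 1) of a list and not its sum. It averaged 2.47 in water and 3.29 in α-KG for macrophage markers, and 5.185 and 6.03 for monocyte markers. Its values by library are not given here, but neither sum overlapped between the groups. Marker level thus differed with treatment, and the 2 cannot be told apart. In bulk RNA a change in the number of cells of a type and a change in RNA per cell cannot be told apart either.

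Neutrophil markers summed to 3423 to 6309 CPM in water and 3436 to 6976 CPM in α-KG, with 0 of 12 called. The library with the highest sum, α-KG 3 at 6976 CPM, also had the highest C5ar1 and C3 levels, and water 5, the lowest at 3423 CPM, had the lowest of both. Of 10 T and NK cell markers all were above 0 and 2 rose, Cd3e by 1.12 and Il2rb by 0.78 on the log2 scale (adjusted p = 0.0445 and 0.0404). Of 6 tested stromal and bone markers 2 rose, Cxcl12 by 1.85 and Kitl by 1.99 (adjusted p = 0.0172 and 0.0328), while Col1a1 was at -1.64 (adjusted p = 0.0577). Among all genes tested, 2.39% were called higher. These calls too were lost when water 1, 2 or 4 or α-KG 4 was left out. The adipocyte marker Lpl was at 1.40 (adjusted p = 0.0506). Their part in the complement values was not tested. Erythroid markers, at 13680 to 46710 CPM, and B cell, granulocyte precursor and megakaryocyte markers were present in every library.

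**Figure D4:**
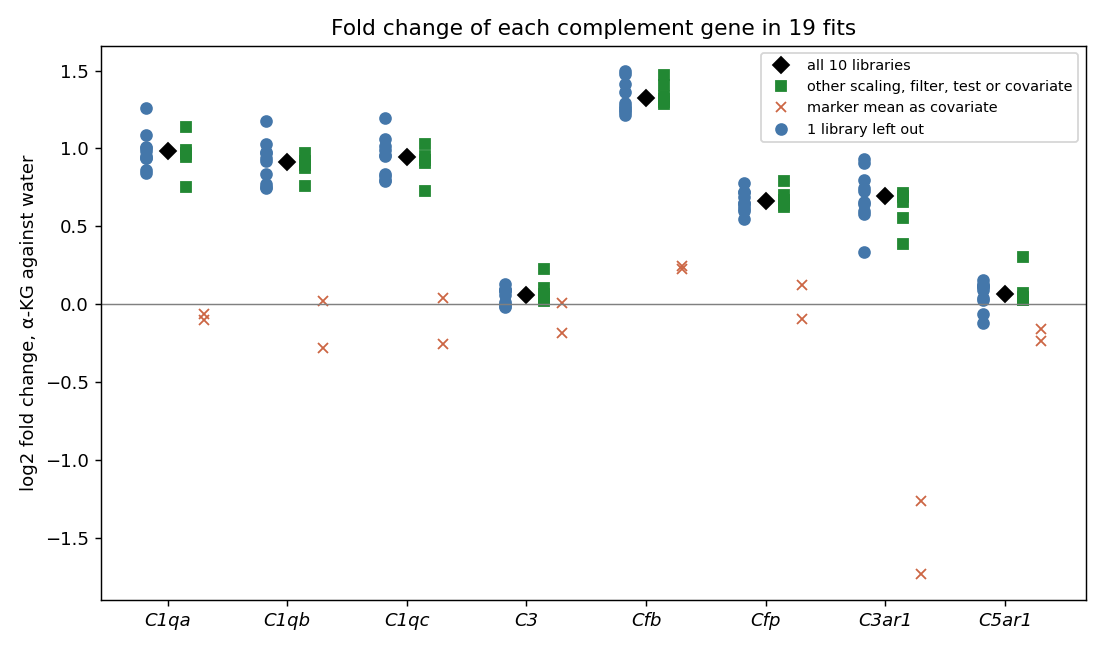
Log2 fold change (y axis) of each of the 8 complement genes with all 10 libraries (black), with 1 library left out (blue), with another scaling, filter, test or the protein-coding share as covariate (green), and with a macrophage or monocyte marker mean as covariate (orange crosses). Cfb, the C1q chains and Cfp stay above 0.5 except with a marker mean, where they lie between -0.28 and 0.24.

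Library totals ran from 14291364 to 22490118 counts, and Rn7s1 and Rn7s2, RNAs of the signal recognition particle, took 7.56% to 24.2% of the counts in water and 23.97% to 31.0% in α-KG. The protein-coding share ran from 42.2% to 72.2% in water and from 37.9% to 50.1% in α-KG. Leaving Rn7s1, Rn7s2 and the ribosomal locus CT010467.1 out of the scaling kept Cfb the 1 called gene of the 8, at a log2 fold change of 1.34 (adjusted p = 0.0434).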

How the data were processed

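Total RNA of bone marrow cells was depleted of ribosomal RNA with RNase H and sequenced, per the labels' protocols. The deposited table holds expected counts (estimated counts per gene, unscaled); the authors' notes name bcl2fastq, DRAGEN and GRCm38, and no source used here names the annotation, the quantifier or whether strand was used. Of the values, 10.3% are not whole.

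Counts were rounded and filtered with filterByExpr (minimum count 10, minimum total 15), which left 15126 of 55367 genes. Groups were compared over all 10 libraries in edgeR 4.0.16 by its quasi-likelihood F test (R 4.3.3; TMM, robust, two-sided), adjusted by Benjamini-Hochberg over all genes tested, with a threshold of 0.05. The standard error is the absolute log2 fold change over the square root of F. The fit was tested on 3 simulated data sets with 200 changed genes each. It recovered 8.46% of 1.5-fold, 52.7% of 2-fold and 85.9% of 4-fold changes, and 5.18% of its calls were false. Changes of 2-fold or less were thus often missed in the simulation. Each simulated gene was drawn independently, without shifts shared by the genes of a library, so these rates may not hold for the real libraries. CPM use TMM-scaled library sizes. Ratios of gene pairs were compared by exact permutation over libraries (scipy 1.17.1), adjusted over 28 pairs. Positions and merged exon lengths came from GENCODE M21, start regions from RefSeq (GRCm38.p6), with entries for 6 of the 8 genes.

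Alternatives were RLE scaling, scaling without 3 abundant RNAs, no filter, DESeq2 1.42.0, limma 3.58.1 voom, 3 covariates and each library left out. The 8 genes, the lists of other complement and marker genes and the tests were chosen with earlier results of these data known. Genes named are the 8, the other complement genes that passed or were the 2 highest of their role, and the 3 nearest patterns of each; others named with values were chosen after their values were seen. 1 listed complement gene is not reported here and is left out of the counts of other complement genes. Azu1, a listed marker, was not found in the table by that symbol.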

Additional observations from a re-analysis of the deposited data

Results flagged for a closer look

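Among 29 complement genes in 5 water and 5 α-KG libraries, 2 of 58 sets of 5 values held 1 library far from the other 4, where chance gives about 1 in 20. Clu, the clusterin gene, a regulator of the terminal complex, was at 4.59 CPM in α-KG 1 and at 2.02 to 2.24 CPM in the other α-KG libraries. C5ar2, the second C5a receptor, was at 9.86 CPM in α-KG 3 and at 4.89 to 6.26 CPM in the other α-KG libraries, and α-KG 3 was also the highest library for C5ar1. None of the 8 complement genes had such a library.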

How the results depend on the processing

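The count of the 8 genes called, 1 in edgeR, was 3 without a filter, 4 with DESeq2 and 5 with limma voom, and 0 with the protein-coding share, the macrophage mean or the monocyte mean as a covariate. It ran from 0 to 5 with 1 library left out, where 0% to 17.4% of all genes were called. Of all genes, 2.73% were called in edgeR, 1.81% without a filter, 10.4% with DESeq2 and 15.8% with limma voom, in either direction. Each fit with a covariate called 0 of 15126 genes. The count of other complement genes called, 2, was 5 with DESeq2, 6 with limma voom and 0 with each of the 3 covariates, and ran from 0 to 7 with 1 library left out. Of these calls 1 was lower with DESeq2 (Cd59b), with limma voom (Cd55) and without α-KG 2 (Cd59b), and the 3 fits called 10.4%, 15.8% and 17.4% of all genes in either direction. No pair ratio passed with a pseudocount of 0.1 or with RLE scaling, where the smallest possible p of 0.00794 sets the same limit as in the main test. With 1 library left out the smallest p seen was 0.0159, which over 28 pairs can hardly pass, so those fits say nothing about stability. Cfb kept its sign in all 18 alternatives and was called in 7.

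Signs of log2 fold changes differed as follows. With the macrophage mean, C1qa was at -0.10, C3ar1 at -1.74 and C5ar1 at -0.16. With the monocyte mean, C1qa was at -0.062, C1qb at -0.28, C1qc at -0.26, C3 at -0.19, Cfp at -0.095, C3ar1 at -1.27 and C5ar1 at -0.24. Without water 5, C3 was at -0.01 and C5ar1 at -0.06, and without α-KG 3 at -0.019 and -0.12. With 1 library left out, C3 ran from -0.019 to 0.13 and C5ar1 from -0.12 to 0.16. The cause was not tested. No paired analysis was possible because no label pairs water with α-KG libraries. Depth limits Cfb and C3ar1 most, with 5.91 to 42.1 and 7 to 41 counts.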
